A study of Homo sapiens with 9 samples.

Results

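The TNF receptor superfamily comprises the cell-surface receptors that bind TNF and related ligands. RNA of 10 of its genes was followed in HT-29 cells: TNFRSF1A, TNFRSF1B, TNFRSF9, TNFRSF10A, TNFRSF10B, TNFRSF12A, TNFRSF21, LTBR, FAS and CD40. They were picked by gene symbol, with earlier results of these data known, out of the 62710 gene identifiers of the count table. Of the 10, 8 passed the filter on low counts and were tested. TNFRSF1B and CD40 did not pass it and are described by their counts.

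HT-29 is an epithelial cell line from a human colorectal adenocarcinoma, and all cells carried the wild-type genotype of the line. Cells received 500 ng/mL ADP-heptose (ADP-L-heptose), 500 ng/mL flagellin (the ultrapure Flagellin-ST) or no stimulus for 2.5 h, with 3 libraries of polyadenylated RNA per group. ADP-heptose is a sugar nucleotide of the lipopolysaccharide synthesis of Gram-negative bacteria that is sensed in the cytosol by the kinase ALPK1, whereas flagellin is sensed at the cell surface by TLR5. Both lead to activation of the transcription factor NF-κB. The comparisons therefore asked which receptor genes responded to either bacterial product, and whether the responses differed.

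Receptors of this family fall into a pair of broad types. Death domain receptors (here TNFRSF1A, TNFRSF10A, TNFRSF10B, TNFRSF21 and FAS) carry a cytoplasmic domain that recruits adaptors such as TRADD or FADD, and can pass on either NF-κB activation or caspase-driven cell death. The other receptors (here TNFRSF1B, TNFRSF9, TNFRSF12A, LTBR and CD40) bind TRAF adaptors directly and signal mainly to NF-κB and MAP kinases. Intestinal epithelial cells are a known target of TNF and TRAIL, and several genes of the family and of its ligands are themselves NF-κB targets.

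The libraries held 35040844 to 37537705 counts in non-stimulated cells, 30770448 to 38304035 after flagellin and 50054773 to 58272772 after ADP-heptose. ADP-heptose replicate 3 stood apart from its group: over 11854 genes its log2 values differed from the other 2 libraries with an SD of 0.359 and 0.365, against 0.117 between those 2. All 8 colon epithelial markers were detected in every library, CDX2 at only 17 to 48 counts. CDX2 was not called after ADP-heptose (log2 fold change -0.95, adjusted p 0.19 by the edgeR test). The leukocyte markers PTPRC, CD3E, CD14 and CD68 and the stromal and endothelial markers COL3A1, DCN, PECAM1 and VWF reached no more than 10 counts in any library. LYZ, also listed as a leukocyte marker, had 13826 to 23970 counts, and the stromal COL1A1 had 437 to 1019. The summed raw counts of the stromal markers were 453 to 547 without stimulus, 437 to 622 after flagellin and 824 to 1021 after ADP-heptose. Nearly all of them were COL1A1, and they are not scaled to library size, which was largest after ADP-heptose. In CPM, COL1A1 went from a mean of 13.54 without stimulus to 17.98 after ADP-heptose. COL1A1 was higher after ADP-heptose (log2 fold change 0.41, adjusted p 0.031), as was the epithelial KRT20 (0.40, adjusted p 0.00094), and whether either bears on the receptors was not tested.

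The start regions of TNFRSF9, TNFRSF1A and LTBR are shown because these receptors responded most, modestly and not detectably in the comparisons that follow. Each line gives the 150 bases up to the RefSeq start site on the strand of the gene (GRCh38.p14). Capitals mark matches to the κB consensus decamer, which NF-κB dimers can bind, and to TGANTCA, which AP-1 can bind.
TNFRSF9, chr1:7940840-7940989, minus strand: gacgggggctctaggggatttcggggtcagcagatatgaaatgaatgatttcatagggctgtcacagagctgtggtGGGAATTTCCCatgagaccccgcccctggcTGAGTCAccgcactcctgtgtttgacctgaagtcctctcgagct
TNFRSF1A, chr12:6342077-6342226, minus strand: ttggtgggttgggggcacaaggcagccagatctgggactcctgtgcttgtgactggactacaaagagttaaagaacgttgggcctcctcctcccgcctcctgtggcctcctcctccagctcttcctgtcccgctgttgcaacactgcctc
LTBR, chr12:6384012-6384161, plus strand: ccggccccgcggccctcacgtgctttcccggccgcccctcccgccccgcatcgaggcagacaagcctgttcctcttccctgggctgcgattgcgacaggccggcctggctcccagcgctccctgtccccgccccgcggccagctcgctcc

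In the TNFRSF9 stretch, a pair of overlapping κB matches began 74 and 73 bases before the start site, and TGAGTCA began 44 bases before it. Neither motif occurred in the TNFRSF1A or LTBR stretch. The RefSeq starts of TNFRSF9, TNFRSF1A and LTBR lie inside the longer gene spans of GENCODE 29. Windows of 300 bases, from 250 before to 50 after the start, were at hand for 6 of the 10 receptors. Both strands of each window were searched for the κB decamer, TGANTCA and the GC box GGGCGG. Over 35116 windows of all genes, 11.3% held the decamer, 7.71% held TGANTCA and 45% held GGGCGG. TNFRSF9 held the decamer, TGANTCA and 1 GC box, LTBR held 4 GC boxes only, TNFRSF1B 2 and TNFRSF21 1, and TNFRSF1A held none of the 3 motifs. FAS has 3 start windows, which together held 1 decamer, 1 TGANTCA and 4 GC boxes. A match of letters is a description and not a binding site.

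ADP-heptose raised the RNA of 5 of the 8 tested receptors and lowered none. These were TNFRSF9, TNFRSF10B, TNFRSF12A, TNFRSF1A and TNFRSF10A, called by edgeR's quasi-likelihood test at a Benjamini-Hochberg adjusted p under 0.05. Over all 17412 genes tested, 7.48% were called higher and 4.42% lower, 1302 and 770 genes. With library totals in place of TMM the latter became 917 and 1886, and 4 receptors were called. At 2-fold or more, 2 of the 8 receptors were called, TNFRSF9 and TNFRSF10B, against 2.89% of all genes. TNFRSF9 passed the filter through the ADP-heptose libraries alone, so its place among the tested genes came with a difference. Of the 7 tested receptors with a mean of at least 10 counts in non-stimulated cells, 4 were higher, 3 of the 5 death domain receptors and TNFRSF12A. The median log2 fold change of the 8 receptors was 0.46, beside 0.01 for all genes, and is subject to the same limit. In a bulk RNA sample, fewer cells of a type and less RNA per cell cannot be told apart.

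**Figure D1:**
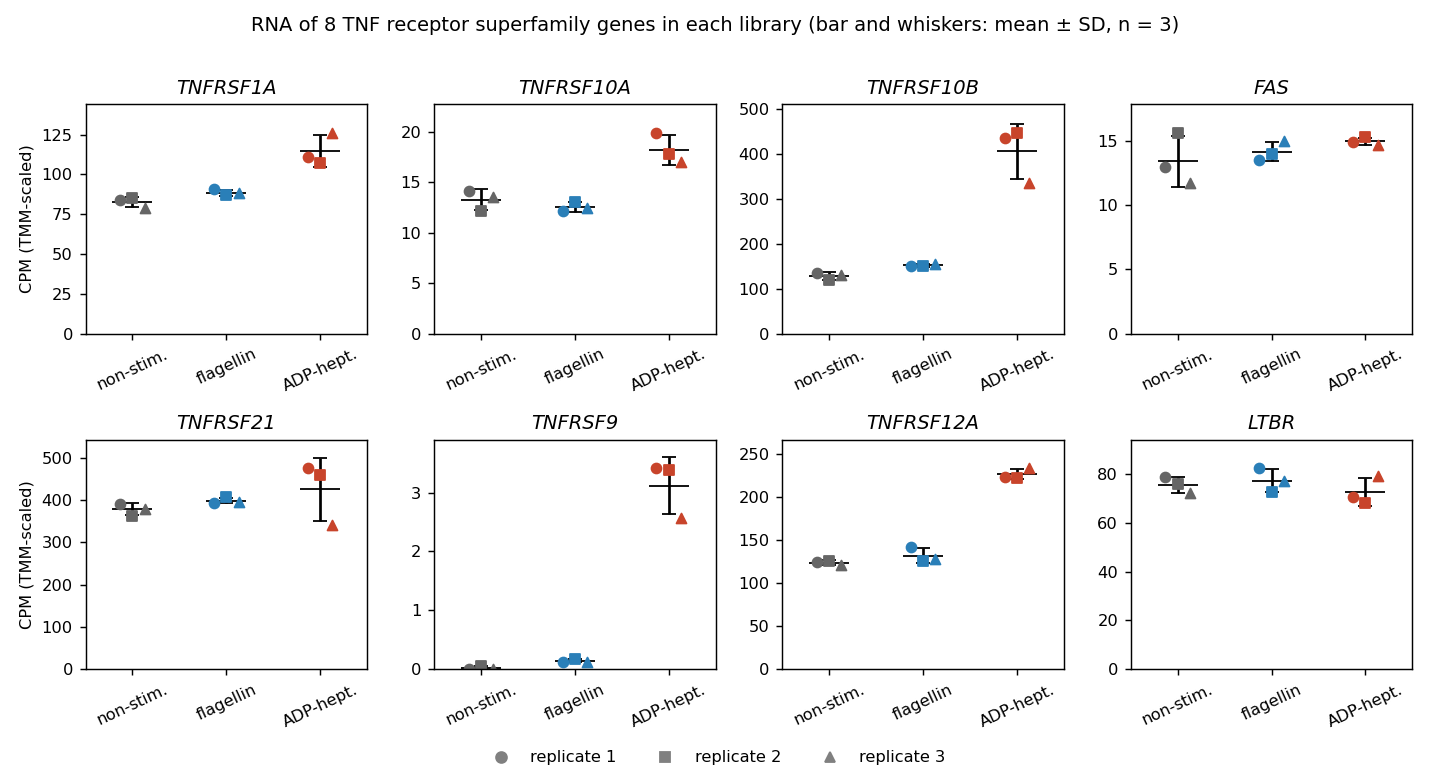
CPM (counts scaled to a common library size after TMM scaling) of the 8 tested receptor genes in each of the 9 libraries. Each symbol is 1 library, shaped by its replicate number, and the bar with whiskers is the mean ± SD (n = 3). All 3 ADP-heptose libraries lie above all others for TNFRSF1A, TNFRSF10A, TNFRSF10B, TNFRSF9 and TNFRSF12A. These are the genes already called, and the share of all genes that separate in this way was not counted. ADP-heptose replicate 3 lies below the other 2 for TNFRSF10A, TNFRSF10B, FAS, TNFRSF21 and TNFRSF9.

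Among the death domain receptors the change was largest for TNFRSF10B (ENSG00000120889; GRCh38 chromosome 8, 23020133 to 23069179, minus strand). It encodes TRAIL receptor 2 (DR5), which forms the death-inducing complex with FADD and caspase 8. Its level was 135.9, 119.4 and 131.4 CPM in the non-stimulated libraries, 150.6, 150.1 and 155.0 after flagellin, and 434.8, 445.8 and 334.1 after ADP-heptose. All ADP-heptose libraries lay far above the rest, replicate 3 less so than the others. The rise was 3.14-fold (95% interval 2.69 to 3.67; log2 1.65 ± 0.10 SE, adjusted p 3.4e-07). The 3 flagellin libraries lay above all non-stimulated libraries, and the share of all genes that separate in this way was not counted. The difference after flagellin was 1.18-fold (1.01 to 1.37) and was not called (unadjusted p 0.037, adjusted p 1). It passed when ADP-heptose replicate 3 was left out of the fit (log2 0.23, adjusted p 0.0024) and when only the 6 libraries compared were fitted (0.23, adjusted p 0.0071). These fits called 165 and 140 of all genes higher after flagellin, beside 64 in the main fit.

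TNFRSF10A (ENSG00000104689; chromosome 8, 23190452 to 23225126, minus strand) encodes TRAIL receptor 1 (DR4), the other death-inducing receptor of TRAIL. Its level was 14.2, 12.1 and 13.6 CPM in non-stimulated cells, 12.1, 13.1 and 12.5 after flagellin, and 19.9, 17.8 and 17.0 after ADP-heptose. The ADP-heptose libraries lay above all others, and the flagellin libraries overlapped with the non-stimulated ones (0.94-fold, 0.81 to 1.10, adjusted p 1). The rise after ADP-heptose was 1.37-fold (1.19 to 1.59; log2 0.45 ± 0.10 SE, adjusted p 0.0083). Scaling to library totals in place of TMM gave 0.32 with an adjusted p of 0.063. TNFRSF10A and TNFRSF10B are close paralogs, and how reads shared between them were counted is not given in the sources used here. In GENCODE 29, 266 and 224 exonic bases of TNFRSF10A overlap with the opposite-strand transcripts AC100861.1 and TNFRSF10A-AS1. Whether the counting used strand is likewise not given.

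TNFRSF1A (ENSG00000067182; chromosome 12, 6328757 to 6342114, minus strand) encodes TNFR1, the receptor through which soluble TNF acts on most cells. It was at 84.0, 85.4 and 79.1 CPM in non-stimulated cells, 90.6, 86.9 and 88.2 after flagellin, and 110.8, 106.9 and 126.0 after ADP-heptose. ADP-heptose replicate 3, low for TNFRSF10B, was the highest library here. The rise was 1.38-fold (1.23 to 1.55; log2 0.47 ± 0.08 SE, adjusted p 0.0012). After flagellin the difference was 1.07-fold (0.95 to 1.20, adjusted p 1) and was not called. The 3 flagellin libraries lay just above the non-stimulated ones, a separation whose share over all genes was not counted.

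TNFRSF21 (ENSG00000146072; chromosome 6, 47231532 to 47309905, minus strand) encodes the death receptor DR6. Its level was 391.7, 363.0 and 379.8 CPM without stimulus, 394.0, 406.6 and 395.6 after flagellin, and 474.6, 460.0 and 340.5 after ADP-heptose. ADP-heptose replicates 1 and 2 thus lay above every other library and replicate 3 below every other library. The fitted difference was 1.12-fold (0.96 to 1.32) and was not called (adjusted p 0.35). Without replicate 3 the log2 fold change was 0.31 with an adjusted p of 1.9e-06, so whether this gene was called rested on that library. That fit called 2018 of 17966 genes higher, beside 1302 in the main fit. After flagellin the difference was 1.05-fold (0.90 to 1.24, adjusted p 1) and was not called. The 3 flagellin libraries lay just above the non-stimulated ones, and how many of all genes separate in this way was not counted.

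FAS (ENSG00000026103; chromosome 10, 88990582 to 89015785, plus strand) encodes the receptor of FAS ligand. It was at 12.95, 15.6 and 11.7 CPM without stimulus, 13.5, 14.0 and 15.01 after flagellin, and 14.95, 15.3 and 14.7 after ADP-heptose. The groups overlapped. The interval of the difference after ADP-heptose ran from 0.95 to 1.31-fold (adjusted p 0.39), and after flagellin from 0.89 to 1.25-fold (adjusted p 1). Of the exonic bases of FAS, 8.93% lie opposite exons of ACTA2.

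Among the TRAF-binding receptors, TNFRSF9 (ENSG00000049249; chromosome 1, 7915894 to 7943165, minus strand) went from near 0 to a low level. It encodes 4-1BB (CD137), a costimulatory receptor known mainly from activated T and NK cells. The counts were 0, 2 and 0 in the non-stimulated libraries, 5, 6 and 4 after flagellin, and 165, 191 and 116 after ADP-heptose. In CPM the ADP-heptose libraries were at 3.41, 3.39 and 2.56, while 3 counts amounted to 0.0532 to 0.095 CPM across the 9 libraries. The summed counts of 472 against 2, scaled to library size, gave a ratio of 176.5 with an exact 95% interval of 48.6 to 1462, which covers counting error only. The test gave an adjusted p of 9.2e-07, but the gene passed the filter through the ADP-heptose libraries alone, so a difference came with that filter. The fitted log2 fold change was 7.22 ± 0.50 (SE) and became 10.02 without non-stimulated replicate 2, the only library of its group with counts, since no count then remained in that group. The leukocyte markers PTPRC and CD3E were at 0 to 2 and at 0 counts in these libraries, while LYZ of the same list had 13826 to 23970. Which cells held the TNFRSF9 RNA was not tested.

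For TNFRSF9 after flagellin, 15 summed counts stood against 2, a ratio of 7.96 (exact 95% interval 1.85 to 71.7, counting error only). All 3 flagellin libraries held more counts than any non-stimulated library, a separation whose share over all genes was not counted. The difference did not pass across all genes (unadjusted p 0.0045, adjusted p 0.51).

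TNFRSF12A (ENSG00000006327; chromosome 16, 3018445 to 3022383, plus strand) encodes FN14, the receptor of the ligand TWEAK. It was at 124.5, 125.9 and 120.5 CPM without stimulus, 141.8, 125.8 and 128.1 after flagellin, and 223.8, 222.7 and 233.2 after ADP-heptose. The 3 ADP-heptose libraries were close to each other and well above the rest. The rise was 1.83-fold (1.66 to 2.03; log2 0.87 ± 0.07 SE, adjusted p 2.1e-06). After flagellin it was 1.07-fold (0.96 to 1.18, adjusted p 1), with overlapping libraries.

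LTBR (ENSG00000111321; chromosome 12, 6375045 to 6391571, plus strand) encodes the lymphotoxin beta receptor, which drives the alternative NF-κB pathway. It was at 78.8, 76.0 and 72.4 CPM without stimulus, 82.5, 72.6 and 77.5 after flagellin, and 70.5, 68.3 and 79.5 after ADP-heptose. The groups overlapped. The interval of the difference after ADP-heptose was 0.85 to 1.08-fold (adjusted p 0.69), and after flagellin it was 0.91 to 1.16-fold (adjusted p 1). Of its exonic bases, 6.72% lie opposite exons of SCNN1A.

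TNFRSF1B (ENSG00000028137; chromosome 1, 12167003 to 12209228, plus strand) encodes TNFR2, the second TNF receptor, which lacks a death domain. No count was found in non-stimulated cells, and the libraries held 1, 2 and 0 counts after flagellin, and 0, 0 and 10 after ADP-heptose. All 10 counts after ADP-heptose thus came from replicate 3. CD40 (chromosome 20, 46118272 to 46129863, plus strand) had 2 counts in ADP-heptose replicate 2 and 0 in the other 8 libraries. With no filter on low counts neither passed the test after ADP-heptose (adjusted p 0.26 and 0.65). Any level of CD40, and of TNFRSF1B in all libraries but that one, lay below what 3 counts per library can show.

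**Figure D2:**
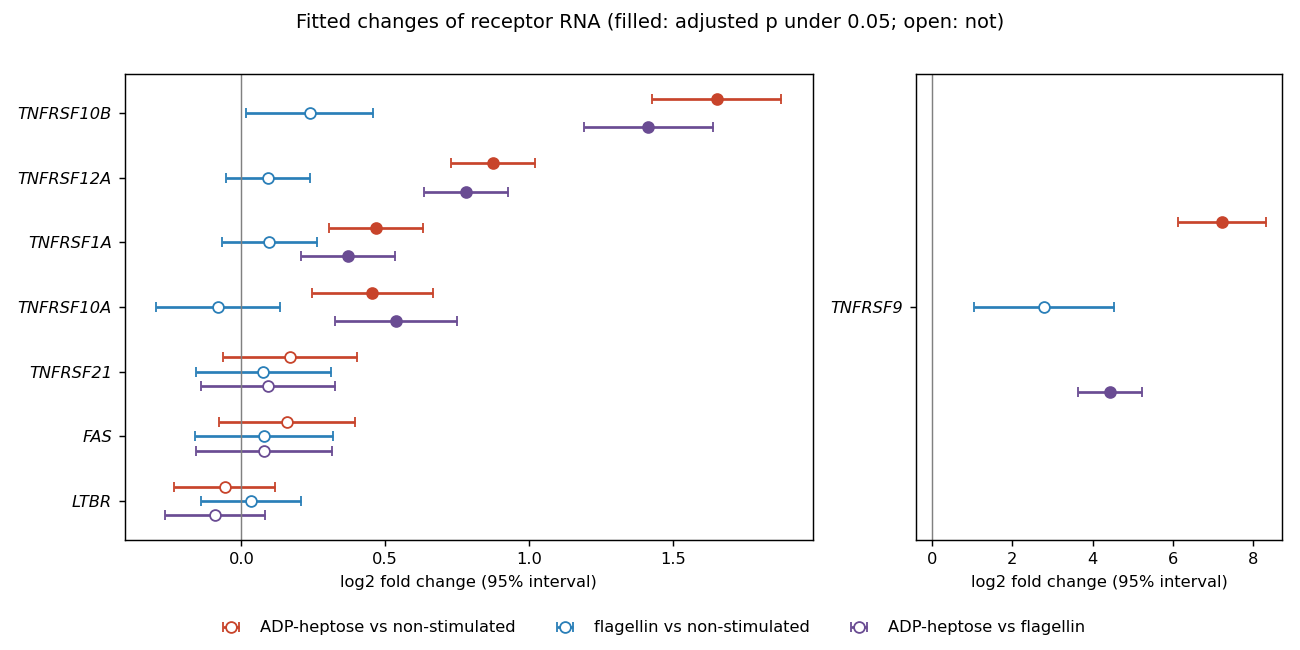
Fitted log2 fold changes of the 8 tested receptors with 95% intervals, for ADP-heptose and flagellin against non-stimulated cells and for ADP-heptose against flagellin (TNFRSF9 on its own axis). Filled symbols passed an adjusted p under 0.05: for ADP-heptose 5 receptors against either other group, for flagellin none.

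After flagellin none of the 8 tested receptors was called higher or lower in the fit of all libraries, where 0.368% of all genes were called higher and 0.0115% lower. Their median log2 fold change was 0.09, beside less than 0.01 for all genes. At an unadjusted p under 0.05, 2 of the 8, TNFRSF9 and TNFRSF10B, were higher, while 3.78% of all genes passed in either direction. By DESeq2 none was called either, with no adjusted p for TNFRSF9.

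The direct contrast of ADP-heptose with flagellin called the same 5 receptors higher and none lower, against 5.4% and 2.76% of all genes. TNFRSF9 passed the filter through the ADP-heptose libraries alone, so its place among these 5 came with a difference. This contrast is the test of whether the responses to both stimuli differed, since each is measured against the same non-stimulated libraries. The log2 differences were 4.43 ± 0.37 (SE) for TNFRSF9 (adjusted p 6.8e-06), 1.41 ± 0.10 for TNFRSF10B (1.9e-06), 0.78 ± 0.07 for TNFRSF12A (8.3e-06), 0.54 ± 0.10 for TNFRSF10A (0.0036) and 0.37 ± 0.08 for TNFRSF1A (0.0079). In each of the 5, every ADP-heptose library lay above every flagellin library. This describes genes already called, and the share of all genes that separate in this way was not counted. For TNFRSF21, FAS and LTBR the adjusted p was 0.66, 0.72 and 0.56. The intervals of these differences were 0.91 to 1.25-fold for TNFRSF21, 0.90 to 1.25-fold for FAS and 0.83 to 1.06-fold for LTBR. Without ADP-heptose replicate 3, TNFRSF21 was higher than after flagellin too (log2 0.24, adjusted p 0.00013). That fit called 1798 of all genes higher, beside 940 in the main fit.

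To compare levels between receptors, CPM was divided by the exonic length of each gene in kilobases. In non-stimulated cells the order was TNFRSF21 with 105.2 ± 4.01 CPM per kilobase (SD, n = 3), TNFRSF12A with 66.9 ± 1.52, TNFRSF10B with 24.99 ± 1.65, TNFRSF1A with 20.7 ± 0.819, LTBR with 12.1 ± 0.510, TNFRSF10A with 4.50 ± 0.354, FAS with 3.16 ± 0.468, and TNFRSF9 with 0.00293. DR6 and FN14 RNA thus exceeded that of the TNF and TRAIL receptors in resting cells, and by this length the ranges of the 3 libraries of neighbours did not overlap. With the length of the longest transcript in place of all exons, TNFRSF1A (37.3) and LTBR (32.6) stood above TNFRSF10B (31.1), and FAS (5.24) stood above TNFRSF10A (4.90). The order within each of these sets of neighbours thus depends on the length used.

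After ADP-heptose, TNFRSF12A reached 122.6 ± 3.14 CPM per kilobase and TNFRSF21 was at 118.2 ± 20.5. These no longer differed beyond the spread of the libraries. TNFRSF10B rose to 78.5 ± 11.9, TNFRSF1A to 28.6 ± 2.52, TNFRSF10A to 6.18 ± 0.50 and TNFRSF9 to 0.493 ± 0.0764. TNFRSF9 remained the lowest of the 8, below FAS at 3.52 ± 0.0704.

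**Figure D3:**
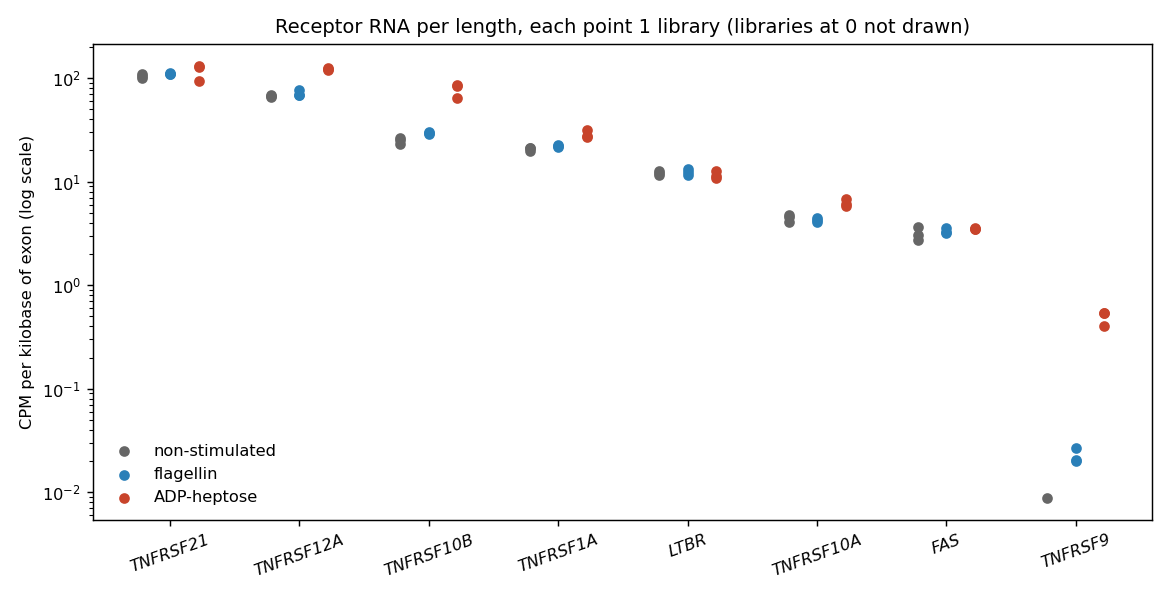
CPM per kilobase of exon (log scale) of the 8 tested receptors, each point 1 library, with the genes ordered by their level in non-stimulated cells. Levels span from over 100 for TNFRSF21 to under 1 for TNFRSF9, and 2 non-stimulated libraries with 0 counts of TNFRSF9 are not drawn.

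TNFRSF1A and LTBR are neighbours on chromosome 12, 32.9 kb apart, and the ratio of their counts within a library does not depend on library scaling. The TNFRSF1A to LTBR ratio was 1.07, 1.12 and 1.09 in non-stimulated cells and 1.10, 1.20 and 1.14 after flagellin. After ADP-heptose it was 1.57, 1.57 and 1.59. The means were 1.09 ± 0.0291 without stimulus and 1.57 ± 0.00984 after ADP-heptose (SD, n = 3), the groups did not overlap, and ADP-heptose replicate 3 did not stand apart. The ratios are given as a description, without a test.

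The TRAIL receptor genes lie together on chromosome 8. The ratio of TNFRSF10B to TNFRSF10A counts was 9.58, 9.84 and 9.70 in non-stimulated cells, 12.4, 11.5 and 12.4 after flagellin, and 21.9, 25.1 and 19.6 after ADP-heptose. The 3 groups did not overlap, with flagellin in between. The ratios in this paragraph restate the changes of single genes and are given as a description, without a test. TNFRSF10D, 66.4 kb from TNFRSF10B, encodes a TRAIL decoy receptor without a working death domain. The ratio of TNFRSF10B to TNFRSF10D was 6.55 ± 0.897, 8.19 ± 0.743 and 16.3 ± 1.32 in the same order of groups, and the non-stimulated and flagellin libraries overlapped.

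**Figure D4:**
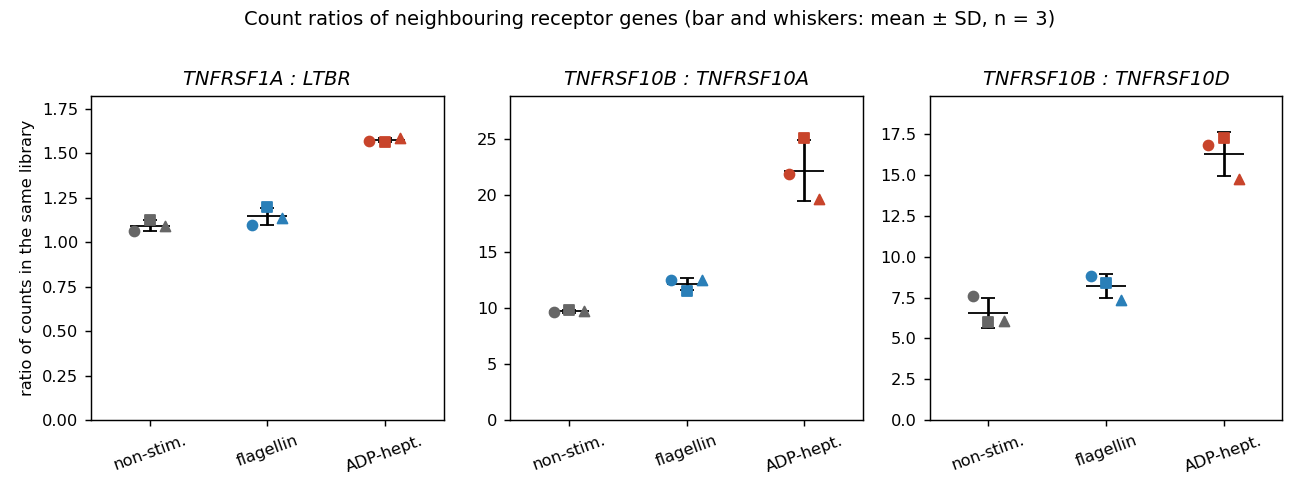
Ratio of raw counts of neighbouring receptor genes within each library, with the mean ± SD (n = 3) as bar and whiskers. All ADP-heptose libraries lie above all others in each panel, which is a description without a test. They run from 1.57 to 1.59 for TNFRSF1A to LTBR, 19.6 to 25.1 for TNFRSF10B to TNFRSF10A and 14.8 to 17.2 for TNFRSF10B to TNFRSF10D.

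The remaining 19 genes of the superfamily were looked at as a list, of which 8 passed the filter. After ADP-heptose 2 were higher and 1 lower, beside 7.48% and 4.42% of all genes. RELT, a receptor found in lymphoid tissues, rose 2.14-fold (log2 1.10 ± 0.12 SE, adjusted p 6.6e-05), from 5.55 to 7.35 CPM in non-stimulated libraries to 13.8 to 14.3. TNFRSF14, which encodes HVEM, a partner of LIGHT and BTLA, rose 1.75-fold (0.81 ± 0.14, adjusted p 0.0017). TNFRSF11A, which encodes RANK, fell by 0.28 on the log2 scale (SE 0.08, adjusted p 0.038), and this call held in 7 of 16 alternative fits. TNFRSF10D was not called against non-stimulated cells (0.32, adjusted p 0.073) but was higher than after flagellin (0.41, adjusted p 0.033). Against flagellin, RELT and TNFRSF14 were likewise higher and TNFRSF11A lower, and the TNFRSF10D and TNFRSF11A calls held in 8 and 7 of 16 alternative fits. Of all genes, 5.4% were higher and 2.76% lower after ADP-heptose than after flagellin. After flagellin none of the 8 was called.

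TNFRSF4, which encodes OX40, had 0 counts in the non-stimulated libraries, 3, 0 and 0 after flagellin, and 10, 4 and 19 after ADP-heptose. Scaled to library size, ADP-heptose replicate 2 (0.0709 CPM) lay below flagellin replicate 1 (0.0770 CPM), so these groups overlapped. The mean level after ADP-heptose was 2.90 times a floor of 3 counts per non-stimulated library, a value without an error of its own. ADP-heptose replicate 2 lay below that floor of 0.0768 to 0.0835 CPM, and replicate 3 was highest (0.419 CPM). TNFRSF4 lay below the filter and was not tested. TNFRSF6B, the soluble decoy of FAS ligand, had 0 counts in all 9 libraries.

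Of the 9 ligand genes of the 10 receptors, 6 passed the filter and 5 of these were higher after ADP-heptose, beside 7.48% of all genes. TNF, LTA and LTB had at most 7 counts in any non-stimulated library and passed the filter through the stimulated libraries, so they had to differ. Of the other 3 tested ligands, 2 were higher. TNF, the ligand of TNFRSF1A and TNFRSF1B, had 0 counts in all non-stimulated libraries, 16, 16 and 19 after flagellin, and 832, 1004 and 689 after ADP-heptose. The mean TNF level after ADP-heptose was 208.5 times a floor of 3 counts per non-stimulated library (adjusted p 4.8e-09 by the edgeR test). After flagellin it was 6.09 times that floor (adjusted p 0.00094). LTB, which forms the ligand of LTBR together with LTA, went from 6, 7 and 1 counts to 171, 116 and 113 after flagellin and 2294, 2590 and 3074 after ADP-heptose. Its log2 fold change was 8.72 ± 0.30 (SE, adjusted p 1.5e-09) after ADP-heptose and 4.88 ± 0.37 (adjusted p 2.3e-05) after flagellin. The ligands TNF and LTB were thus the members of the list called after both stimuli, beside 0.368% of all genes called higher after flagellin.

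LTA had 0, 0 and 2 counts without stimulus and 46, 46 and 70 after ADP-heptose, a ratio of 60.6 (exact 95% interval 16.5 to 504.5, counting error only; adjusted p 0.00014). TNFSF10, which encodes TRAIL, was at 9.39, 10.5 and 9.31 CPM without stimulus and 19.4, 19.2 and 19.5 after ADP-heptose. It thus rose 1.99-fold (log2 0.99 ± 0.09 SE, adjusted p 1.1e-05) beside the rise of both TRAIL death receptors. TNFSF9, which encodes the ligand of 4-1BB, rose 1.77-fold (0.82 ± 0.18, adjusted p 0.012), a call that was lost without non-stimulated replicate 2 (adjusted p 0.052). TNFSF12, which encodes the FN14 ligand TWEAK, was not called (1.10-fold, 0.83 to 1.46, adjusted p 0.68), whereas its receptor gene was. FASLG, CD40LG and TNFSF14 reached at most 4 counts in any library. In the direct contrast TNF, LTB, LTA and TNFSF10 were higher after ADP-heptose than after flagellin, beside 5.4% of all genes. LTA passed the filter through the ADP-heptose libraries alone.

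All 13 adaptor and death-signal genes passed the filter. After ADP-heptose 7 were higher and none lower, beside 7.48% and 4.42% of all genes. BIRC3, which encodes the ubiquitin ligase cIAP2 of the TNFR1 complex, was at 9.75 to 12.1 CPM without stimulus, 45.9 to 48.6 after flagellin and 280.1 to 382.9 after ADP-heptose. It rose 30.4-fold (24.8 to 37.3, adjusted p 1.6e-10) and 4.24-fold (3.52 to 5.10, adjusted p 1.9e-06), and was the only gene of the list called after flagellin. With only 6 libraries in the fit, or without ADP-heptose replicate 3, 4 genes of the list were called after flagellin, BIRC2, CFLAR and TRAF3 being added. These fits called 140 and 165 of all genes higher after flagellin, beside 64 in the main fit. BIRC2, a relative of BIRC3 that encodes cIAP1, rose 2.16-fold (1.95 to 2.40) after ADP-heptose. CFLAR, whose product FLIP restrains caspase 8 at death receptors, rose 2.20-fold (1.98 to 2.44, adjusted p 2.6e-07). The 4 others were TRAF1 (log2 1.14 ± 0.17 SE), TRAF3 (0.93 ± 0.08), TRAF2 (0.74 ± 0.12) and CASP10 (0.55 ± 0.10).

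The proximal death-signal genes TRADD, RIPK1 and CASP8 were not called after ADP-heptose, with log2 fold changes of 0.01, 0.15 and 0.02. The caspase gene CASP10, named above, was called higher (0.55, adjusted p 0.0040). FADD was at -0.32 (adjusted p 0.053) and TRAF5 at -0.44 (adjusted p 0.056), and these passed the threshold in 6 and 5 of 16 alternative fits. In the direct contrast with flagellin, 6 genes of the list were higher and FADD was lower (-0.43, adjusted p 0.015, called in 13 of 16 alternative fits). Of all genes, 5.4% were higher and 2.76% lower in this contrast. The median log2 fold change of the list was 0.55 after ADP-heptose and 0.08 after flagellin.

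The last list held genes that shed receptors from the cell surface or silence them, of which 5 of 6 passed the filter. After ADP-heptose 1 of these was called higher and none lower, beside 7.48% and 4.42% of all genes. RHBDF2, which encodes iRhom2, a partner that carries the sheddase ADAM17 to the surface, rose 1.35-fold after ADP-heptose (log2 0.43 ± 0.07 SE, adjusted p 0.0010). ADAM17, which cleaves TNF and its receptors, was at 0.13 (adjusted p 0.61) and ADAM10 at -0.14 (adjusted p 0.33). BAG4, whose product SODD binds TNFR1 in resting cells, was at -0.13 (adjusted p 0.45). The sheddase inhibitor TIMP3 had 0 counts in all libraries. Without ADP-heptose replicate 3, RHBDF1 and ADAM17 were called higher as well, 3 genes in all, in a fit that called 2018 of 17966 genes higher. After flagellin none of the list was called.

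**Figure D5:**
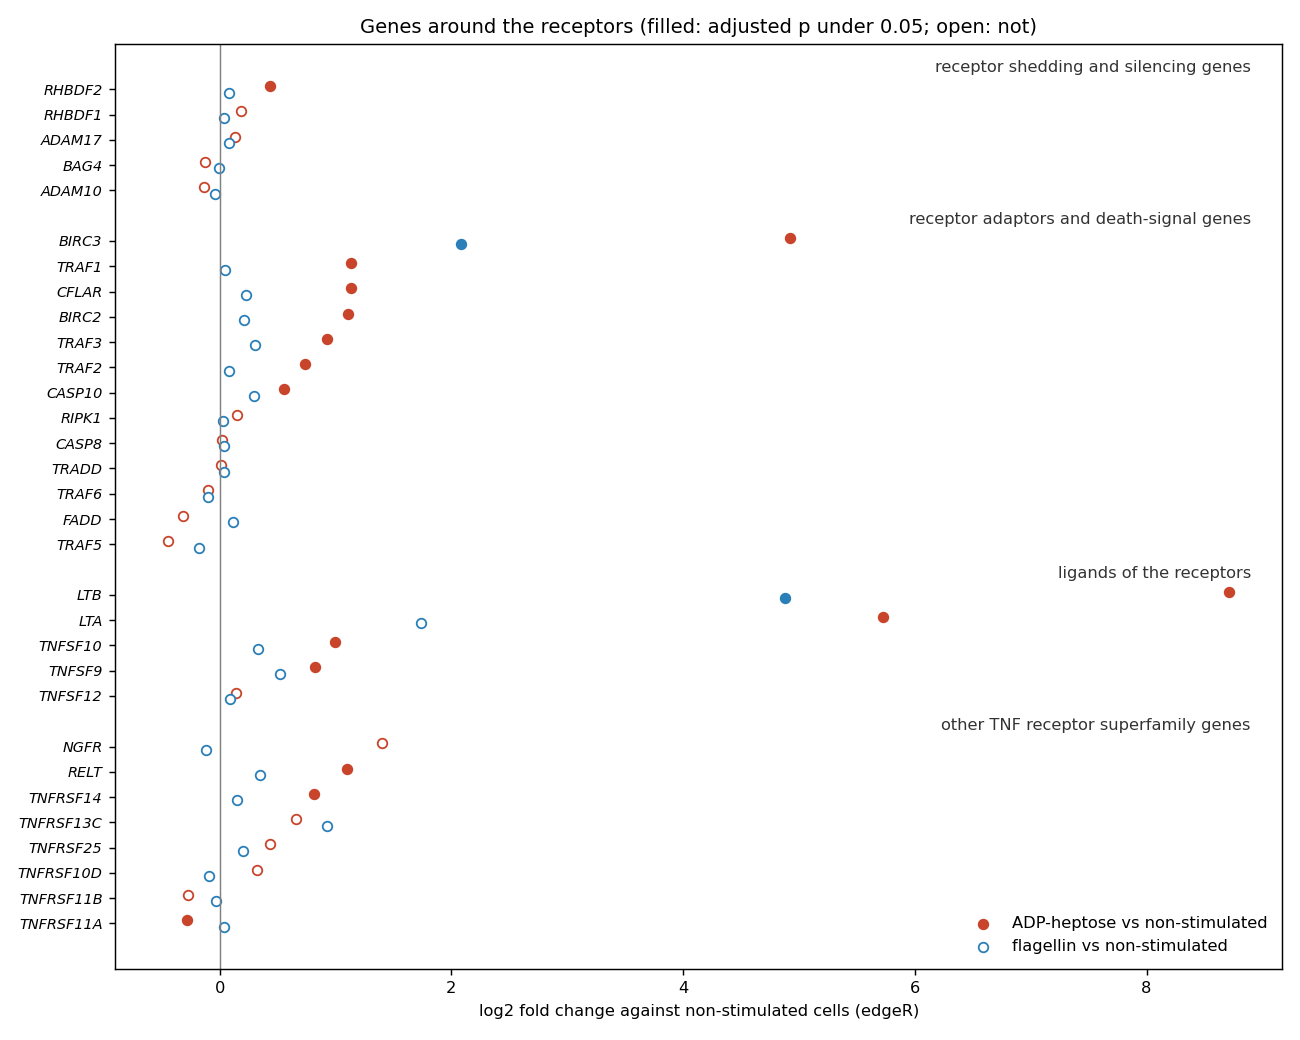
Log2 fold changes against non-stimulated cells of the tested genes in the 4 lists around the receptors, with filled symbols for an adjusted p under 0.05. LTB and BIRC3 are filled for both stimuli, at 8.72 and 4.93 after ADP-heptose; TNF is left out because it had 0 counts in the non-stimulated libraries.

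For the 2 receptors that changed at least 2-fold, the genes with the most similar pattern over the 9 libraries were sought among genes whose log2 CPM averaged 1 or more. For TNFRSF9 these were MIDN (Pearson r 0.997) and KDM6B (0.997), out of 12606 genes of which 439 had an r above 0.95. For TNFRSF10B they were EGR1 (0.997) and CYLD (0.997), out of 12605 genes of which 410 lay above 0.95. The 9 points share 3 group means, and any gene that rose mainly after ADP-heptose scores high, so these values are descriptions.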

How the data were processed

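Polyadenylated RNA of HT-29 cells was sequenced (Illumina NovaSeq, paired ends). The authors aligned reads with HISAT2 and counted them per gene with featureCounts, and deposited raw counts for 9 libraries. Versions, genome build, annotation and strand setting are not given in the sources used here. The table has 62972 lines for 62710 gene identifiers; the 232 identifiers listed more than once hold identical counts and were used once. The study describes 3 independent experiments.

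Counts were tested in 1 fit of all 9 libraries with edgeR 4.0.16 (R 4.3.3; TMM scaling, filterByExpr, robust quasi-likelihood F test), with Benjamini-Hochberg adjustment over 17412 genes and calls at an adjusted p under 0.05. The SE is the log2 fold change divided by the square root of F. The study used DESeq2 with an added 2-fold limit; DESeq2 1.42.0, the 2-fold limit, other scalings and filters, 6-library fits, a replicate block and leaving out each library were the alternatives. The steps were tested on simulated data. Gene positions and lengths are from GENCODE 29, start regions from RefSeq. All 10 receptors are named, plus called or absent members of the lists and the 2 genes most like each receptor changed at least 2-fold. The members and lists were chosen with earlier results of these data known. Depths of 30770448 to 58272772 counts set a floor of 3 counts per library, for counting error only. The counts of 1 listed marker gene are not reported here.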

Additional observations from a re-analysis of the deposited data

Results flagged for a closer look

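For 5 receptors the response to ADP-heptose differed from that to flagellin in the direct contrast of both groups. The log2 difference, ADP-heptose minus flagellin, was 4.43 for TNFRSF9, 1.41 for TNFRSF10B, 0.78 for TNFRSF12A, 0.54 for TNFRSF10A and 0.37 for TNFRSF1A. In each, 3 of 3 ADP-heptose libraries were higher than any flagellin library, which describes called genes and is no further test. TNFRSF9 passed the filter through the ADP-heptose libraries alone, so its difference came with that filter.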

How the results depend on the processing

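Over 24 receptor fold changes and their 383 alternative values, 374 kept their direction and side of the threshold. With the 2-fold limit, 2 receptors in place of 5 were called higher after ADP-heptose against non-stimulated cells, and 2 against flagellin. The count of receptors called higher after flagellin, 0 in the fit of all libraries, became 1 with only the 6 libraries compared and ran from 0 to 1 with single libraries left out, the gene being TNFRSF10B and the library ADP-heptose replicate 3. Directions turned for 4 values near 0. With single libraries left out, LTBR after flagellin ran from -0.0201 to 0.0695 on the log2 scale and FAS from -0.0108 to 0.1989; with library totals, TNFRSF21 and FAS against flagellin became -0.0197 and -0.039. Under that scaling the median change over all genes after ADP-heptose was -0.13, and TNFRSF10A was no longer called (0.32, adjusted p 0.063). Over the alternative fits, the 2-fold limit aside, the all-gene counts ran from 917 to 2018 higher and 392 to 1886 lower after ADP-heptose (1302 and 770), 38 to 165 and 0 to 10 after flagellin (64 and 2), and 677 to 1798 and 233 to 1064 for ADP-heptose against flagellin (940 and 481; 708 and 1064 with library totals). With the 2-fold limit they were 504 and 82, 37 and 2, and 359 and 50. In longest-transcript lengths 6 receptor levels moved beyond 1 SD. Between libraries of the same replicate number, correlations of deviations from the group means were -0.418 to 0.246. Since ADP-heptose replicate 3 stood apart from its group, those with ADP-heptose cannot decide whether equal numbers mark the same experiment. Between flagellin and non-stimulated libraries they were -0.0505, -0.0451 and 0.0492 for equal numbers. For unequal numbers they were -0.0732 to 0.106, so equal numbers did not stand out there. With the number as a block 5 receptors were still called higher after ADP-heptose and all-gene counts were 1064 higher and 523 lower. Counting error limits TNFRSF9 without ADP-heptose, TNFRSF1B and CD40; the causes of these shifts were not tested.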
